A study of Homo sapiens with 9 samples.

Results

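The probes described here are those that the array design named by an Ensembl transcript identifier and by no gene symbol. They were taken as the non-control probes whose gene name began with ENST, and there were 2689 of them among 42405 non-control probes. They stood for 2577 transcripts, 2480 of which had 1 probe. The other naming classes were 26434 probes with a gene symbol, 8278 for long intergenic non-coding RNA, 2118 with a LOC number and 2886 with an accession or no name.

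The RNA came from NT2, cells of a human embryonal carcinoma that retinoic acid drives towards neurons, and all cultures, controls included, were kept for 4 days (96 h) in medium with 10 μM retinoic acid. The groups were unexposed control, 1 μM paraoxon and 5 μM mipafox, both of them organophosphates, with 3 one-colour arrays each, lettered A to C, whose values are given below in that order. The labels call the arrays biological replicates and the study's methods call them technical, so p-values measure the spread between these arrays, which may be technical. The line is a tumour line, and the study used no other. Slide 1 carried the control arrays with mipafox A, slide 2 the paraoxon arrays with mipafox B and C, so paraoxon and control shared no slide. Between 65.7% and 73.6% of all probes were well above background on an array, and precision is limited by there being 3 arrays a treatment. All 8 markers of embryonal carcinoma (POU5F1 and NANOG among them) and all 6 of the early retinoic acid response were well above background on all 9 arrays, as were 4 of 5 neural progenitor and 3 of 4 neuron markers. So were 5 of 9 markers of cell types that the cultures should lack (PTPRC, CD3E, ACTN2, PECAM1 and CDH5). MYH1 and GFAP were well above background on no array.

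Ensembl catalogues transcripts from aligned cDNA and protein evidence, and its entries include alternative transcripts of known genes, processed pseudogenes, antigen receptor segments and single cDNA clones. Array makers also place probes on such entries, and such a probe can carry the transcript identifier in place of a gene symbol. Processed pseudogenes are reverse-transcribed copies of spliced messenger RNA, and abundant messages such as those for ribosomal proteins have many of them. Variable segments of immunoglobulin and T cell receptor genes lie far from their constant regions until lymphocytes join them by recombination.

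Each probe was a 60-base sequence, given here as the files print it, with its hg19 position from the same files. The first pair is shown because these probes were among the 10 brightest, and capitals mark the run of 23 bases shared with a probe of PPIA, the peptidyl-prolyl isomerase cyclophilin A, and the run of 24 bases shared with a probe of RPS20, a protein of the small ribosomal subunit. Their positions were chr11:3913738-3913797 and chr13:27591688-27591747, both on the minus strand.
A_33_P3270581: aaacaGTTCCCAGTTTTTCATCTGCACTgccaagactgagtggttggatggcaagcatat
A_33_P3384997: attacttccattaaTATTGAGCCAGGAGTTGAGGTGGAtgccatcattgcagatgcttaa

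The next pair belonged to 1 transcript, ENST00000425591, and capitals mark the 45 bases that both contain. They lay at chr7:153756530-153756589 and chr7:153756523-153756582 on the minus strand.
A_33_P3212716: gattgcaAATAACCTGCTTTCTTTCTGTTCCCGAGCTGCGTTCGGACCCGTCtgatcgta
A_33_P3216945: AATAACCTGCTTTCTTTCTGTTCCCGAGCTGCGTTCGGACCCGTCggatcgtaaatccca

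The last set holds probes of small p in the comparisons below, and it ends with the named probe of largest level difference among those detected in 1 treatment and not in another. None of them contains AATAAA, the letters of the commonest polyadenylation signal, so nothing is in capitals. In order they lay at chr7:46822781-46822840 (plus strand), chr14:107179008-107179067 (minus), chr2:111391821-111391880 (plus), chr17:62385704-62385763 (minus), chr6:56468851-56468910 (minus), chr7:142124251-142124310 (minus) and chr13:76445347-76447819 (plus). The last of these is split over 2473 bases of the genome, whereas the others are contiguous.
A_33_P3591810: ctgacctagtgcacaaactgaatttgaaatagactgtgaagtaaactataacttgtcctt
A_24_P203418: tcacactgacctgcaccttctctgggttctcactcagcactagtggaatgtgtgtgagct
A_24_P24972: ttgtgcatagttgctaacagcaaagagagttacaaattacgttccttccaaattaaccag
A_33_P3590279: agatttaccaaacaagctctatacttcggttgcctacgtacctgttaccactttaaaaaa
A_23_P348159: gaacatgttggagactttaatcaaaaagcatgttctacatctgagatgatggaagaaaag
A_33_P3297545: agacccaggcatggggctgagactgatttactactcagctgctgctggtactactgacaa
A_24_P341000: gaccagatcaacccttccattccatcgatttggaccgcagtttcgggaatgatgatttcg

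By sequence the Ensembl-named probes were close to the symbol-named ones in base composition and differed in how they sat on the genome. Their mean GC content was 44.0% ± 8.59 (SD over 2689 probes) against 43.2% ± 7.87 (SD over 26434). AATAAA occurred in 210 of them (7.81%) and in 7.49% of symbol-named probes, searched on the printed strand only. Of the 2684 with a position, 50 (1.86%) were split over more than 60 bases of the genome, the sign of a probe across a splice junction, against 8.49% of symbol-named probes. For long intergenic non-coding RNA the share was 0.0733%.

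On the chromosomes the Ensembl-named probes did not follow the symbol-named ones. Chromosome 1 held the most, 324, followed by chromosome 2 with 259 and chromosome 7 with 192. As a share of their class they were 1.69 times as frequent as symbol-named probes on chromosome 22, 1.55 times on chromosome 10 and 1.5 times on chromosomes 7 and 9. On chromosome 19, which is dense in protein-coding genes, the ratio was 0.476. Antigen receptor segments made up 74 of the 119 probes on chromosome 14, 47 of 192 on chromosome 7, 28 of 111 on chromosome 22 and 21 of 259 on chromosome 2, where the immunoglobulin and T cell receptor loci lie. Without them the ratio on chromosome 14 went from 1.45 to 0.587, on chromosome 22 to 1.35 and on chromosome 7 to 1.21, while on chromosome 10, which held none of them, it was 1.66.

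The nearest symbol-named probe lay at a median distance of 20316.5 bases, on the same strand for 1788 of 2682 probes and on the opposite strand for 894. Within 1000 bases without overlap, 50 of 96 same-strand neighbours (52.1%) and 26 of 52 opposite-strand neighbours (50.0%) were well above background on all 9 arrays. Between 1000 and 10000 bases the shares were 43.4% of 532 and 35.6% of 225. From 10000 to 100000 bases they were 36.6% of 844 and 37.1% of 407. Beyond 100000 bases they were 32.7% of 294 on the same strand and 25.2% of 206 on the opposite strand. On both strands detection was highest within 1000 bases and lowest beyond 100000, and in between it went down step by step on the same strand only.

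By their descriptions, 1052 probes carried the full name of a gene in the HGNC nomenclature without its symbol. A further 627 pointed to a GenBank cDNA or EST, 404 had no description, 212 pointed to a UniProt protein entry, 207 to a RefSeq record, 176 to an antigen receptor segment and 11 to other sources. These groups were formed after the files had been seen.

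Ensembl-named probes were detected far less often than symbol-named ones. On all 9 arrays 1010 of the 2689 were well above background (37.6%), against 73.4% of symbol-named probes. On no array were 1081 (40.2%), against 15.5%, and the remaining 598 were detected on 1 to 8 arrays. The share on all 9 arrays was also above 37.6% for long intergenic non-coding RNA (45.9%), LOC numbers (42.5%) and accessions (42.2%).

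**Figure D1:**
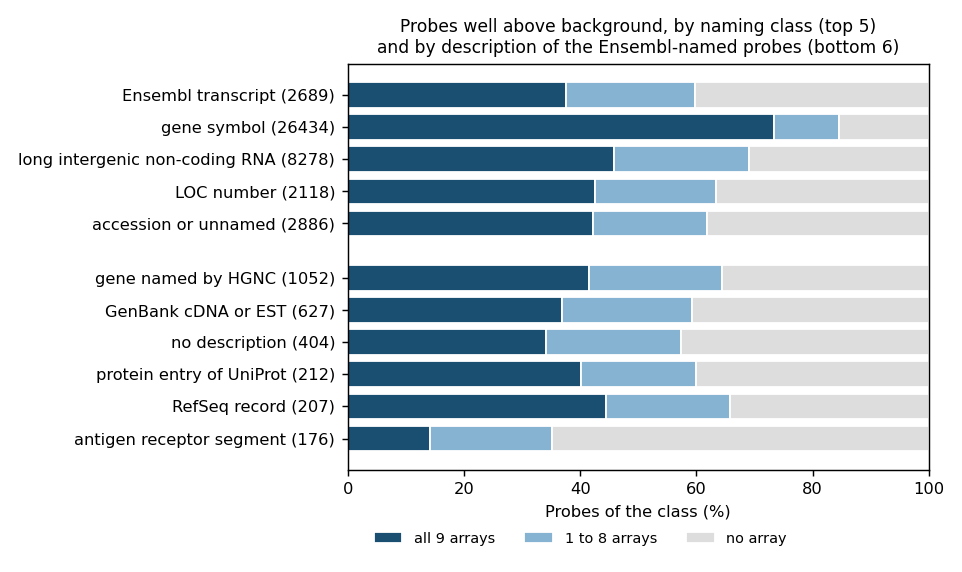
Share of probes (%, horizontal axis) that were well above background on all 9 arrays, on 1 to 8 arrays or on no array, for the 5 naming classes and for the 6 larger kinds of description among the Ensembl-named probes, with the number of probes in parentheses. The symbol-named bar is dark for 73.4% of its length and the antigen receptor bar for 14.2%.

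Among the kinds of description, RefSeq records were detected most often (44.4% on all 9 arrays), followed by HGNC-named genes (41.5%) and UniProt entries (40.1%). Probes with no description came to 34.2%. The description words gave a wider range. Of 12 probes whose description named a ribosomal protein 9 were detected on all 9 arrays, as were 23 of 37 for zinc finger proteins, a large family of DNA-binding regulators. Of 18 olfactory receptors, which are expressed in the nasal epithelium, 1 was detected on all 9 arrays and 15 on none.

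Of the 6 larger kinds of description, antigen receptor segments were detected least often. Of 176, 25 were detected on all 9 arrays (14.2%) and 114 on none (64.8%). T cell receptor segments were detected on all 9 arrays in 8 of 83 cases and immunoglobulin segments in 17 of 93. Their share well above background was 26.7%, 31.3% and 25.6% in control, 25.6%, 26.7% and 19.3% with paraoxon, and 19.9%, 25.6% and 22.2% with mipafox. The treatments overlapped.

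Over all Ensembl-named probes the share well above background was 48.1%, 54.2% and 48.7% in control. It was 48.8%, 47.9% and 42.6% with paraoxon, and 43.0%, 50.2% and 44.5% with mipafox. The means were 50.3% ± 3.36 in control, 46.4% ± 3.37 with paraoxon and 45.9% ± 3.82 with mipafox (SD, n = 3), and the treatments overlapped. Symbol-named probes gave 80.4% ± 1.51, 77.9% ± 2.20 and 78.3% ± 1.85 in the same order, with the lowest value on the same array, paraoxon C (75.4%).

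**Figure D2:**
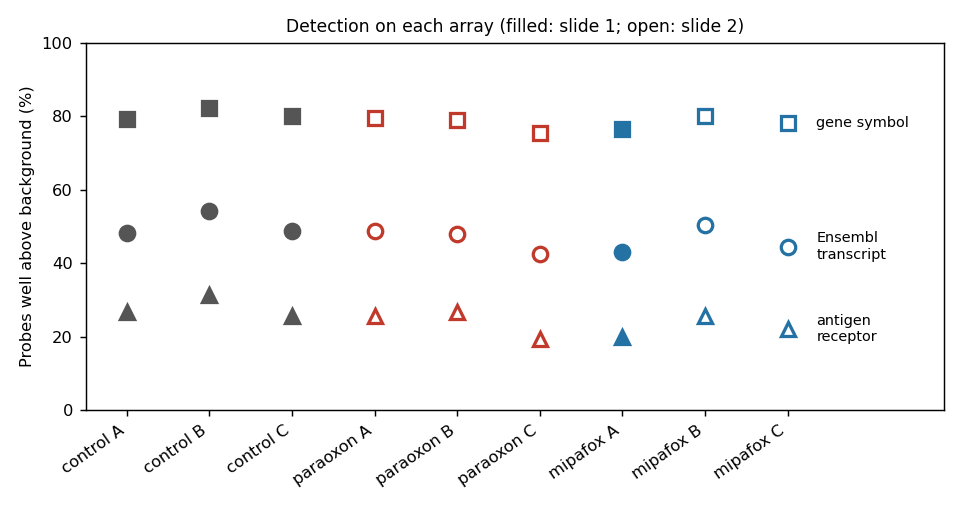
Share of probes well above background (%, vertical axis) on each of the 9 arrays for symbol-named probes (squares), Ensembl-named probes (circles) and the antigen receptor segments among them (triangles). The 3 classes keep their order on every array, and the Ensembl-named probes lie between 42.6% and 54.2%.

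Levels were taken as the log2 processed signal minus the array's 75th percentile, so that 0 stands for a probe at that percentile. The median over the Ensembl-named probes was -6.87 and over the symbol-named ones -2.40, a difference of -4.46. The median per array was -6.81 ± 0.19 in control, -6.71 ± 0.10 with paraoxon and -6.81 ± 0.23 with mipafox (SD, n = 3). Among probes detected on all 9 arrays the medians were -3.59 for Ensembl-named and -0.90 for symbol-named probes. With the normexp background correction, here with an offset of 50 added to every signal, the difference over all probes was -1.95.

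Among the brightest Ensembl-named probes were some described as, or sharing bases with, ribosomal proteins and cyclophilin A. The 10 of highest mean level lay between 6.13 and 7.48 on every array, and none was saturated. A_33_P3270581, described as a peptidyl-prolyl isomerase A-like record, gave 7.46, 7.30 and 7.24 in control, 7.05, 7.08 and 7.48 with paraoxon, and 7.48, 7.32 and 7.13 with mipafox. A_33_P3384997, with no description, gave 7.31, 6.92 and 6.73 in control, 6.59, 6.59 and 7.22 with paraoxon and 7.10, 6.80 and 6.47 with mipafox. In both the treatments overlapped.

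Others of the 10 were described as RPS21 and an RPL12 variant, proteins of the small and the large ribosomal subunit, as TTC19, a mitochondrial protein needed for respiratory complex III, as JPH3, a junctophilin that tethers the endoplasmic reticulum to the plasma membrane in neurons, and as the predicted records LOC284600 and LOC100506453. The remaining ones, A_23_P336854 and A_24_P349387, had no description. For all 10 the log2 change lay between -0.18 and 0.06 with paraoxon and between -0.20 and 0.04 with mipafox. The lowest limma adjusted p for paraoxon among them was 0.812 and for mipafox 0.938.

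Runs of 20 or more identical bases with a symbol-named probe, in the same orientation, were found in 30 Ensembl-named probes, 24 of which (80.0%) were detected on all 9 arrays, against 37.1% of the 2659 others. Of the 10 brightest, 2 had such a run (those printed above), and of the 40 brightest, 11. Signal from the messenger RNA of the symbol-named gene and signal from the Ensembl transcript cannot be told apart at such a probe, and how much each gave was not tested. The naming classes also share whole probes. All 60 bases were those of another probe in 9 Ensembl-named probes. A_33_P3237492, named below, was among them, with a probe for long intergenic non-coding RNA.

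Where a transcript had several probes, detection could differ between them. Of the 97 transcripts with 2 or more probes, 25 had all their probes detected on all 9 arrays and 23 had all on none. In 19, at least 1 probe was detected on all 9 arrays and at least 1 on none. ENST00000425591, annotated from testis cDNA clones, had the overlapping pair printed above detected on all 9 arrays, at levels of -0.48 to 0.02 and -0.36 to 0.16. Another of its probes, at chr7:153755074-153755133, was detected on no array, and the remaining one on 7. All 7 probes of ENST00000434625, the transcript with the most probes and described as hypothetical LOC401357, were detected on all 9 arrays.

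The HGNC-named probes could be set beside the probes that carry the symbol of the same gene. Of 1052, 901 matched the full name of exactly 1 gene on the array, 825 genes in all. In 743 of these cases at least 1 symbol-named probe was detected on all 9 arrays, and then the Ensembl-named probe was also detected on all 9 in 350 and on none in 213. In 85 cases no symbol-named probe was detected on any array, and the Ensembl-named one was detected on all 9 in 15 and on none in 57. The Ensembl-named probe was thus undetected on every array in 213 of the 743 cases with a symbol-named probe detected on all 9. For scale, 375 of all 1052 HGNC-named probes (35.6%) were detected on no array. The best-detected of a gene's symbol-named probes was set against a single Ensembl-named probe, which favours such a difference.

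For changes, 1248 Ensembl-named probes passed a filter: all arrays of some treatment had to be well above background, and no treatment could have fewer than 2 values. A probe that passed only through the treatment where it was bright had to differ, so counts over these 1248 do not stand for all 2689. The limma fit ran over all 29134 probes that passed and used all 9 arrays. A call needed an adjusted p under 0.05 (Benjamini-Hochberg over the 29134) and a change of more than 2-fold.

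For paraoxon against control 0 Ensembl-named probes were called, and over all tested probes 0% were. At an unadjusted limma p under 0.05 with the same fold limit, 27 Ensembl-named probes were higher (2.16% of 1248, against 1.45% of all tested probes) and 12 were lower (0.962%, against 0.738%). Symbol-named probes gave 0.515% higher and 0.660% lower, or 0.890% and 1.45% when weighted to the brightness of the Ensembl-named ones. Higher probes were more frequent still among accessions (7.34%), long intergenic non-coding RNA (3.32%) and LOC numbers (2.87%).

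When the mipafox arrays were left out and limma was fitted to control and paraoxon alone, 19 Ensembl-named probes were called (1.52% of those tested), 18 higher and 1 lower, against 0.947% of all tested probes and 0.366% of symbol-named ones. Most of the 276 calls fell in the other naming classes, which together were called more often than the Ensembl-named probes. In the 18, paraoxon lay above control by a median of 1.41, mipafox B and C on slide 2 by 1.02 and mipafox A on slide 1 by 0.24. Within slide 2 paraoxon lay above mipafox B and C by a median of 0.42. With slide as a block in the fit of 9 arrays the count was 0. The block takes the slide difference from mipafox B and C against mipafox A, so it rests on the single array mipafox A. Paraoxon and slide cannot be told apart against control, and what part slide had in these values was not tested.

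The 27 higher probes of the 9-array fit had the same pattern. Their median difference from control was 1.25 with paraoxon, 0.91 in mipafox B and C and 0.23 in mipafox A. Mipafox B and C together lay more than 2-fold above control in 12 of the 27 and mipafox A in 2. A slide block made the median 0.67, and 23 kept their sign. The 12 lower probes gave -1.31, -1.29 and -0.65 in the same order, with a slide-block median of -0.61.

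Among the probes of smallest p for paraoxon, A_33_P3591810 came first. Its transcript ENST00000459691 is described by the PRO1866 cDNA, and the nearest symbol-named probe, of TNS3, lay 492379 bases away on the opposite strand. Its level was -7.03, -7.10 and -6.83 in control, -4.57, -4.38 and -4.38 with paraoxon, and -5.57, -4.99 and -4.49 with mipafox. Both exposures lay above control without overlap. The change was 2.55 ± 0.24 (SE) for paraoxon with a limma adjusted p of 0.0608, and 1.97 ± 0.24 for mipafox with 0.217. With slide as a block these were 1.71 ± 0.30 and 1.42 ± 0.23, with limma adjusted p of 0.509 and 0.268. The mipafox value with the block, 1.42, is the difference of mipafox A from the control mean on slide 1. Well above background were 2 of 3 control arrays and all arrays of both exposures. The probe thus entered the test through the exposures alone, where it was high, so the filter favoured a difference.

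A_24_P203418 was a probe of immunoglobulin heavy variable 2-70, a segment that B cells join to make antibody. It gave -7.73, -7.50 and -7.46 in control, -6.18, -6.25 and -5.70 with paraoxon and -6.54, -6.70 and -6.60 with mipafox. The 3 treatments did not overlap, and the probe was well above background on every paraoxon array and on no control or mipafox array. Against the background limit paraoxon was at least 2.83-fold higher than control, with a limma adjusted p of 0.0690. By the group means it was 1.48-fold higher than mipafox, with a limma adjusted p of 0.998. The slide-block difference from control was 1.63 ± 0.31 (SE) with a limma adjusted p of 0.511. The probe entered the test through the paraoxon arrays alone, where it was high, so the filter favoured a difference.

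A_24_P24972, described by a placenta cDNA clone, lay 3819 bases from a probe of the mitotic checkpoint kinase BUB1 on the opposite strand. Its levels were 0.70, 0.41 and 0.55 in control, 1.92, 1.99 and 2.23 with paraoxon and 1.01, 2.01 and 1.30 with mipafox. Paraoxon lay above control without overlap, by 1.5 ± 0.24 (SE, limma adjusted p 0.0740) and by 0.85 ± 0.36 with slide as a block. Mipafox A, on the control slide, was the lowest mipafox array.

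A_33_P3590279 had no description and lay 14781 bases from a probe of PECAM1, an adhesion molecule of endothelium and blood cells, on the same strand. It gave 1.07, 1.20 and 1.08 in control, 2.91, 2.88 and 3.24 with paraoxon and 1.5, 2.98 and 2.14 with mipafox, a change of 1.89 ± 0.31 (SE, limma adjusted p 0.0740) that came to 0.83 ± 0.40 with slide as a block. Mipafox B and C lay 1.06 above mipafox A. The same order, with mipafox A nearest to control, held for A_24_P195286, A_33_P3274560 and A_33_P3228593. Their changes with paraoxon were 1.41, 1.17 and 1.1 (limma adjusted p 0.0740, 0.0753 and 0.0753) and became 0.79, 0.56 and 0.58 with slide as a block.

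A_33_P3274560 was a probe of SLC19A3, a thiamine transporter, and could be compared with the symbol-named probes of that gene. It gave -3.73, -3.72 and -3.98 in control, -2.61, -2.76 and -2.56 with paraoxon and -3.79, -2.98 and -3.38 with mipafox. The 2 symbol-named probes of SLC19A3, also detected on all 9 arrays and 16679 and 16740 bases away, changed by 0.06 ± 0.12 and 0.27 ± 0.32 (SE) with paraoxon, with limma adjusted p of 0.886 and 0.797. The difference between the probes of the gene was not tested.

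Lower with paraoxon was A_33_P3413821, described by a UniProt entry for an astrocyte cDNA and lying 1541 bases from a probe of KIRREL, a cell adhesion gene, on the same strand. It gave -0.83, -0.99 and -1.35 in control, -2.09, -2.24 and -2.32 with paraoxon and -1.83, -2.21 and -2.51 with mipafox. Both exposures lay below control without overlap, by -1.16 ± 0.20 (SE, limma adjusted p 0.0759) for paraoxon and -1.13 ± 0.20 (0.279) for mipafox. With slide as a block the differences were -0.63 ± 0.31 and -0.77 ± 0.24.

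For mipafox against control 0 Ensembl-named probes were called, and over all tested probes 0% were. At an unadjusted limma p under 0.05 with the fold limit 6 were higher (0.481%, against 0.268% of all tested probes) and 10 were lower (0.801%, against 0.577%). Symbol-named probes weighted to the same brightness gave 0.211% and 0.892%. Without mipafox A, the only mipafox array on the control slide, 5 Ensembl-named probes were called (0.401% of those tested), against 0.261% of all tested probes. Mipafox A alone lay more than 2-fold from control in the same direction in 1 of the 6 and 2 of the 10.

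Besides A_33_P3591810, A_24_P203418 and A_33_P3413821, described above, the probes of smallest p for mipafox were led by A_23_P348159, a probe of DST. Dystonin is a large linker of the cytoskeleton with many isoforms. It gave -5.75, -5.71 and -5.68 in control, -6.19, -5.97 and -6.61 with paraoxon and -6.99, -6.63 and -6.93 with mipafox. It was well above background on every control array and on 2 arrays of each exposure, so it entered the test through control alone, where it was high. The 3 mipafox arrays lay below all others, by -1.14 ± 0.18 (SE) from control with a limma adjusted p of 0.279. With slide as a block the difference was -1.28 ± 0.26, with a limma adjusted p of 0.40. That difference is the same quantity as mipafox A minus the control mean on slide 1. The 3 symbol-named probes of DST changed by 0.04 ± 0.26, -0.44 ± 0.39 and 0.05 ± 0.18 with mipafox.

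A_33_P3221618, a probe of RAPGEF5, an exchange factor that activates Rap proteins, gave -3.63, -3.49 and -3.80 in control, -4.47, -4.90 and -5.25 with paraoxon and -4.28, -4.73 and -5.11 with mipafox. Both exposures lay below control without overlap, by -1.23 ± 0.25 (SE, limma adjusted p 0.0865) and -1.07 ± 0.25 (0.381). With slide as a block the differences were -0.60 ± 0.39 and -0.64 ± 0.31. The symbol-named probe of RAPGEF5, 74916 bases away, changed by 0.11 ± 0.25 and -0.11 ± 0.25. The other probes of smallest p for mipafox were A_33_P3237492, from a pancreatic islet EST (-0.69), A_33_P3314471, from a Jurkat cDNA 12191 bases from a probe of the mitochondrial gene IMMT (-0.73), and A_33_P3352048, a predicted record near TTLL10 (0.85). Their limma adjusted p was 0.340 each, and on slide 1 mipafox A differed from the control mean in the same direction, by -0.87, -0.70 and 1.08.

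Across the HGNC-named probes and the brightest tested symbol-named probe of the same gene, 456 pairs could be compared. The changes had the same sign in 250 pairs with paraoxon and in 247 with mipafox. Pearson's r across pairs was 0.12 for paraoxon and 0.13 for mipafox, as a description over 456 pairs that share the 9 arrays and are not independent. The median size of change was 0.23 for the Ensembl-named and 0.15 for the symbol-named probes with paraoxon, and 0.18 and 0.13 with mipafox.

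As a class, the tested Ensembl-named probes had a median log2 change of 0.06 with paraoxon (quartiles -0.17 and 0.31), and 56.7% were positive. Symbol-named probes put into 10 classes of brightness and weighted to the same classes had a median of -0.04 and 45.8% positive, so the difference of medians was 0.10. With mipafox the values were 0.00 and -0.03, a difference of 0.03. Against every other tested probe at equal brightness the paraoxon difference was 0.04. The upward shift with paraoxon was not particular to Ensembl-named probes. Not matched for brightness, the median change was 0.16 for long intergenic non-coding RNA (67.3% positive). It was 0.12 for accessions (61.8%) and 0.08 for LOC numbers (60.5%). Ensembl-named probes lay above symbol-named ones in 9 of the 10 classes with paraoxon and in 8 of 10 with mipafox. As 835 of the 1248 (66.9%) fell into the 4 dimmest classes, brightness had to be matched before medians were compared. The median SD between arrays of a treatment was 0.29 for Ensembl-named probes and 0.28 for symbol-named ones weighted to their brightness.

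The difference was also taken array by array. Measured on each array as the deviation from the mean of all 9, Ensembl-named minus symbol-named probes at equal brightness came to -0.0017, -0.05 and -0.10 in control. It was 0.04, -0.0077 and 0.15 with paraoxon and 0.03, 0.06 and -0.13 with mipafox. Paraoxon and control overlapped, since paraoxon B lay below control A, and the pooled SD within treatments was 0.079, less than the paraoxon difference and more than the mipafox one. Without paraoxon C the paraoxon difference was 0.05, and with slide as a block 0.20. The mipafox difference was -0.01 without mipafox B and 0.10 without mipafox C. No p was computed, as the class was chosen with results known.

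**Figure D3:**
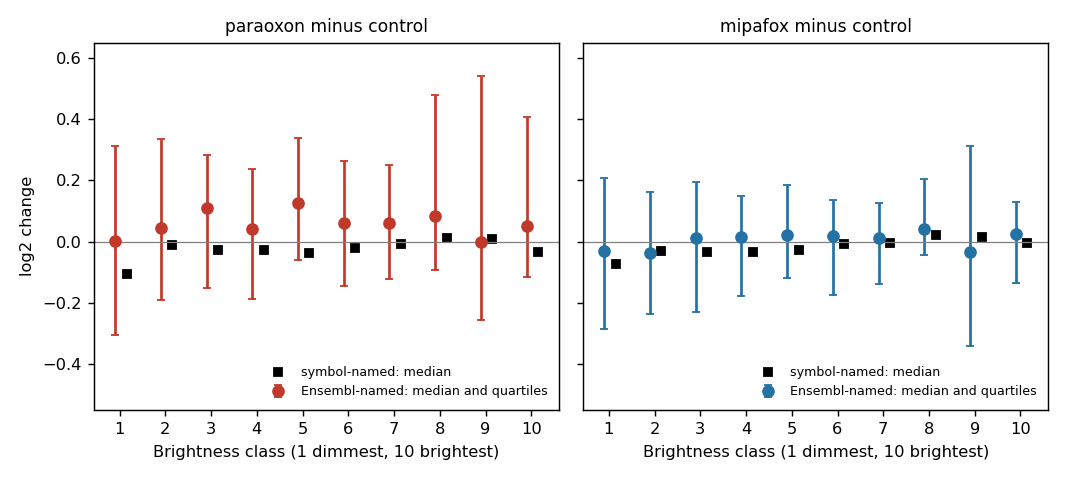
Median log2 change (vertical axis) by brightness class (horizontal axis) for Ensembl-named probes (circles, with bars from the first to the third quartile) and symbol-named probes (squares), for paraoxon minus control on the left and mipafox minus control on the right. Circles lie above squares in 9 of 10 classes on the left, and the quartile bars are far longer than the gaps between circles and squares.

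By kind of description, the median change with paraoxon was 0.14 for 111 RefSeq records and 103 UniProt entries, 0.13 for 43 antigen receptor segments, 0.07 for 281 GenBank clones, 0.04 for 542 HGNC-named genes and 0.01 for 166 probes with no description. The 2 tested probes of other sources were left out of this list. With mipafox the medians of the same kinds ran from -0.04 (no description) to 0.10 (antigen receptor segments). The differences between these groups were not tested.

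Compared directly, paraoxon and mipafox differed at 0 Ensembl-named probes in limma, with a lowest adjusted p of 0.998, and over all tested probes 0% were called. At an unadjusted p under 0.05 with the fold limit 3 Ensembl-named probes passed (0.240%), 2 higher and 1 lower with paraoxon, against 0.254% of all tested probes. A_33_P3297545, a probe of T cell receptor beta variable 6-8, gave 0.45, 0.22 and 0.60 in control, 1.02, 1.31 and 1.16 with paraoxon and 0.37, 0.55 and 0.59 with mipafox. Paraoxon lay above both other treatments without overlap, by 0.66 ± 0.15 (SE) from mipafox with a limma adjusted p of 0.998, and within slide 2 by 0.59. Against control the difference was 0.74 ± 0.15 (limma adjusted p 0.0865), and 0.54 ± 0.26 (0.617) with slide as a block.

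The other 3 probes of smallest p in that contrast were A_33_P3243399, from a cDNA named SLAP 37871 bases from a probe of SLMAP, a membrane protein of the sarcolemma (0.84 ± 0.20, SE), A_33_P3224495, a predicted record (0.74 ± 0.18, with 1 of 3 mipafox arrays well above background and entry to the test through paraoxon alone), and A_33_P3267467, a probe of RFX3, a transcription factor of ciliated cells (0.59 ± 0.15). Within slide 2 their differences were 0.73, 0.76 and 0.52. The RFX3 probe was well above background on no mipafox array and on 2 of 3 paraoxon arrays. By the group means paraoxon was 1.51-fold higher than mipafox, with a limma adjusted p of 0.998. The 2 symbol-named probes of RFX3 were detected on all 9 arrays. Against control they changed by 0.002 ± 0.16 and -0.52 ± 0.24 (SE) with paraoxon. With mipafox they changed by 0.11 ± 0.16 and -0.59 ± 0.24.

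Detection differed wholly between treatments at 29 Ensembl-named probes, detected on all 3 arrays of a treatment and on no array of another (1.08% of 2689). The share was 0.674% of all 42405 non-control probes and 0.564% of symbol-named ones. LOC numbers came close to the Ensembl-named probes with 1.04%, and long intergenic non-coding RNA gave 0.785% and accessions 0.728%. The control arrays were the detected ones in 15 comparisons with paraoxon and 14 with mipafox, paraoxon in 3 with control and 2 with mipafox, and mipafox in 0 with control and 1 with paraoxon. Over all probes the control arrays were likewise the detected ones in 179 comparisons with paraoxon and 130 with mipafox, against 17 and 1 the other way. The control arrays also had the highest mean share of detected probes, as given above. A probe with this pattern could pass the filter through the treatment where it was bright, so the p-values below come after a filter that favours a difference.

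The largest level difference was at A_24_P341000, the split probe printed above, described as hypothetical LOC729420. It gave -8.32, -9.34 and -9.18 in control and -8.38 on mipafox A, which are the 4 arrays of slide 1. On the 5 arrays of slide 2 it gave -5.76, -5.92 and -4.90 with paraoxon and -5.59 and -4.81 for mipafox B and C. It was well above background on every array of slide 2 and on none of slide 1, the 1 Ensembl-named probe with that pattern. Against the background limit paraoxon was at least 5.80-fold higher than control, with a limma adjusted p of 0.107, and mipafox at least 3.49-fold higher, with 0.478. With slide as a block the difference from control was 0.25 ± 0.67 (SE).

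In the opposite direction, A_33_P3417487, a probe of SCUBE1, a secreted and cell-surface protein, was well above background on all 3 control arrays and on no paraoxon array. It gave -5.30, -5.70 and -6.80 in control, -7.33, -8.89 and -8.23 with paraoxon and -5.46, -6.64 and -8.86 with mipafox, where mipafox A was the 1 detected array, so that detection again followed slide, in slide 1 only. Control was at least 2.75-fold higher than paraoxon, with a limma adjusted p of 0.265, and the slide-block difference was 0.08 ± 1.17 (SE). The symbol-named probe of SCUBE1, detected on all 9 arrays, changed by 0.13 ± 0.20 with paraoxon.

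A_33_P3348794, a UniProt entry for a protein of no stated function, was detected on every control array (-5.84, -5.30 and -6.02), on no paraoxon array (-6.73, -7.12 and -7.69) and on 1 mipafox array (-6.49, -6.12 and -6.91). Control was at least 2.41-fold higher than paraoxon, with a limma adjusted p of 0.0869, and the slide-block difference, -1.43 ± 0.57 (SE), was close to the -1.46 ± 0.30 without the block. The other probe of its transcript, ENST00000434336, was detected on all 9 arrays, those of paraoxon included. A_33_P3843285, a predicted record, was detected on every paraoxon array (-6.28, -6.52 and -4.18) and on no mipafox array (-7.29, -6.73 and -6.99). By the group means paraoxon was 2.54-fold higher, with a limma adjusted p of 0.998, and paraoxon C stood well above the other 2 paraoxon arrays. A_33_P3279660, on an unplaced contig, was detected on every control array (-6.03, -6.05 and -6.25) and on no mipafox array (-7.19, -7.54 and -7.24). It shares a run of 29 bases with a probe of ANKRD20A2, so signal from that gene cannot be told apart. By the group means control was 2.31-fold higher, with a limma adjusted p of 0.718.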

How the data were processed

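Per the labels, RNA of NT2 cells was hybridized to 9 one-colour arrays. The authors deposited the Feature Extraction 10.5.1.1 output of each array, in which the signals are linear intensity values. The authors also deposited log2 values, and 1280 of the Ensembl-named probes are among them. Probe names, positions (hg19) and sequences are those of the scanner files.

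For each array the log2 processed signal was set relative to its 75th percentile. Outlier and control spots were dropped before repeated spots of a probe were averaged. Tested were the 29134 probes for which some treatment had all its arrays well above background and no treatment had fewer than 2 values, with limma 3.58.1 in R 4.3.3, one mean per treatment, with Benjamini-Hochberg adjustment. The fit was tested on simulated data. Slide was a block in an alternative.

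Named probes were those called (there were 0), the 10 brightest, those of smallest p (8, 8 and 4 for paraoxon and mipafox against control and against each other) and up to 6 detected in 1 treatment and not in another. The members and lists were chosen with earlier results of these data known. A fold against a group below background was set against the lowest signal well above background on each array. Where the group's levels lay above that signal, the plain fold between group means is given. Figures were drawn with matplotlib 3.10.9. Exon, intron and UTR annotation was not used here.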

Additional observations from a re-analysis of the deposited data

How the results depend on the processing

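The count of Ensembl-named probes called was 0 for paraoxon against control and moved to 19 in the fit of the 2 treatments alone (1.52% of those tested, against 0.947% of all tested probes), to 39 with arrayWeights (3.13%, against 2.30%) and to 39 at an unadjusted p (3.13%, against 2.19%). With single arrays left out it ranged from 0 to 17 (17, 9 and 1 without mipafox A, B and C, with 276, 93 and 1 among all tested probes). For mipafox it moved from 0 to 49 with arrayWeights (3.93%, against 2.75%) and to 16 at an unadjusted p (1.28%, against 0.844%), and ranged from 0 to 5 with arrays left out, 5 without mipafox A, with 76 among all tested probes. For paraoxon against mipafox it moved from 0 to 3 at an unadjusted p. The cause was not tested. Quantile normalization, normexp, the authors' log2 values, both other filters on dim probes, slide as a block, trended variance and kept outlier spots gave 0 for both comparisons with control.

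The difference from symbol-named probes at equal brightness, 0.10 for paraoxon, moved to 0.20 with slide as a block, ranged from 0.05 to 0.13 with single arrays left out and was 0.04 with the authors' values, whose probes the authors had filtered. The share of Ensembl-named probes detected moved from 50.3%, 46.4% and 45.9% to 62.2%, 59.4% and 60.2% (control, paraoxon, mipafox) when a probe counted as detected by being found and significantly positive. The level difference from symbol-named probes moved from -4.46 to -1.95 with normexp.

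With the replicate letter as a block the counts were 0, 0 and 0. The paraoxon difference stayed at 0.10, which this block cannot change, as every treatment has each letter once. The letters did not pair the arrays: correlations of deviations between same-lettered arrays ran from -0.60 to 0.57. Of 256 recomputed changes of 20 named results, 0 reversed and 25 passed the limit that the reported fit did not. Dim signal limits most Ensembl-named probes: 1081 were well above background on no array.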
